A study of Mus musculus with 24 samples.

Results

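The metalloproteinases and their inhibitors were followed in 4T1-T mouse breast cancer cells recovered from lung metastases and from primary tumors. A gene belonged to the set when its symbol was Mmp, Timp, Adam or Adamts followed by a number, with a final a or b allowed for Mmp and Adam genes. This choice used no measured value and gave 79 of the 23478 symbols in the table, made up of 23 Mmp, 4 Timp, 33 Adam and 19 Adamts genes. Of these 79 members, 38 had enough reads to be tested, against 12625 of all 23478 symbols, and the 41 others are described at the end. All the cells carried a short hairpin RNA, grew in DMEM with non-essential amino acids and were selected with 6TG (6-thioguanine), to which 4T1 cells are resistant and host cells are not. The 6 groups, of 4 RNA-seq libraries each (A to D), were lung metastases with the hairpin shAsns-1, shAsns-2 or shRenilla and primary tumors with shAsns-1, shAsns-2 or shRenilla. Both shAsns hairpins are directed at Asns, the enzyme that makes asparagine, and shRenilla is directed at a luciferase that mouse cells lack. The labels give no mouse age or strain and do not say whether libraries A to D came from separate mice, clones or pools, so a p-value here reflects only how much these libraries vary, which may be technical variation.

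Matrix metalloproteinases (MMPs) are zinc enzymes, mostly secreted as inactive precursors, that cut collagens and other proteins of the extracellular matrix. ADAMs are membrane-bound relatives, several of which release growth factors and receptors from the cell surface, and ADAMTS enzymes are secreted relatives that cut matrix proteoglycans and procollagens. TIMPs are small secreted proteins that block the active sites of these enzymes. In mammary tumors the enzymes are studied for their part in invasion and spread, and both the cancer cells and the host cells around them can make them.

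Asns was measured first, as a check of the labels. Its level, in counts-per-million (CPM, read counts over library size as scaled by the trimmed mean of M values), averaged 194 ± 18.2 CPM in lung libraries labelled shAsns-1, 44.6 ± 6.51 CPM in lung libraries labelled shAsns-2 and 63.6 ± 7.89 CPM in lung shRenilla libraries (SD, n = 4 each). The same means were 170 ± 17.1 CPM in tumor libraries labelled shAsns-1, 36.8 ± 10.3 CPM in tumor libraries labelled shAsns-2 and 82.8 ± 15.9 CPM in tumor shRenilla libraries (SD, n = 4 each). Asns was thus higher, not lower, in the tumor libraries labelled shAsns-1 than in tumor shRenilla libraries (log2 fold change 1.04 ± 0.16 SE, adjusted p = 1.47e-05), and likewise in lung (1.61 ± 0.16, adjusted p = 2.62e-06). It was lower in tumor libraries labelled shAsns-2 than in tumor shRenilla libraries (-1.18 ± 0.16, adjusted p = 0.00122), and the lung difference missed the threshold (-0.51 ± 0.16, adjusted p = 0.405). Every direction given here for shAsns-1 is therefore a direction between labels. Library totals ran between 8480908 and 38049196 counts. Lung shAsns-2 D and lung shRenilla B stood apart from the rest of their groups. The epithelial markers fixed for the cell type check summed to 384 to 1048 CPM over all libraries, with Krt5 at 0 in every one, while the markers of T and B cells, endothelium and lung alveoli summed to at most 1.46 CPM.

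Of the Mmp genes, 10 lay side by side within 427 kb of chromosome 9 (chr9:7272514-7699585, GRCm38), in the order Mmp13, Mmp12, Mmp1b, Mmp3, Mmp1a, Mmp10, Mmp8, Mmp27, Mmp20 and Mmp7, and the first 6 passed the filter. Promoters of 5 of these 6 are printed because the genes share a short motif and because their levels moved in different ways. The promoter of Adamts1, a gene on chromosome 16 with a large change in the other direction, is printed beside them. It was picked with that change known. Each line is the 150 bases before the start annotated by RefSeq (GRCm38.p6), 5′ to 3′ on the gene's strand, and capitals mark the AP-1 motif TGANTCA, which reads the same on both strands.
Mmp13: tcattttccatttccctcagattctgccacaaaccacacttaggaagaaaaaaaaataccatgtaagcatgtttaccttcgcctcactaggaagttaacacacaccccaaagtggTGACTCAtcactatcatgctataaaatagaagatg
Mmp1b: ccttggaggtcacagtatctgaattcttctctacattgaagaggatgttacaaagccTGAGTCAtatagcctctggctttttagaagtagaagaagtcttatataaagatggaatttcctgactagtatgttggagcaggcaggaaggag
Mmp3: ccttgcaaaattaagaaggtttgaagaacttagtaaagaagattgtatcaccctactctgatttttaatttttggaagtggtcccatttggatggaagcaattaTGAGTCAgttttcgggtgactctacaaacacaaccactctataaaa
Mmp1a: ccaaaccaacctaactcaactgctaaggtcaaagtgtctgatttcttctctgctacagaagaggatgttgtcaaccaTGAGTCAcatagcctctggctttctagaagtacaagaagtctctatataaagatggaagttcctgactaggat
Mmp10: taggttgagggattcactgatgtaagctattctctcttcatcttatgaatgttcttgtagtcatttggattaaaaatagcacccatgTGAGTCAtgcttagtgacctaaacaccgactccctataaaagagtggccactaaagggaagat
Adamts1: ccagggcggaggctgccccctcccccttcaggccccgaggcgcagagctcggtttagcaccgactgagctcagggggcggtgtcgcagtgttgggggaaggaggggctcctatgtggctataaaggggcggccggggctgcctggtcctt
The windows were chr9:7272364-7272513 on the plus strand for Mmp13, chr9:7388027-7388176 on the minus strand for Mmp1b, chr9:7445672-7445821 on the plus strand for Mmp3, chr9:7463991-7464140 on the plus strand for Mmp1a, chr9:7502192-7502341 on the plus strand for Mmp10 and chr16:85803114-85803263 on the minus strand for Adamts1. The first base of the motif stood 35 bases before the start in Mmp13, 93 in Mmp1b, 46 in Mmp3, 73 in Mmp1a and 63 in Mmp10, and the Adamts1 window held none. The promoter list held 49 of the 79 members and 22 of the 38 tested ones. Mmp2, Mmp9 and Adam12 were among those not listed, so their promoters were not searched. The motif occurred in 8 of the 12 promoters listed for the cluster, covering 8 of its 10 genes and all 6 that passed the filter. Outside the cluster it occurred in 2 of the 42 listed promoters of members. Among all 32851 promoters of the same length, 1394 held it (4.24%). Adamts9, higher in tumor libraries labelled shAsns-1 against shRenilla, had no match in its window. Mmp12 (with the losses given below) and Adam19 were lower in that comparison, and each had a window with the motif. Whether the motif goes with the direction of change was not tested. A match is a string of letters and not a shown binding site. Mmp1a and Mmp1b are near copies, with 90.9% identity over 1446 aligned transcript bases, so the split of reads between them is uncertain, and Mmp1a is annotated as a polymorphic pseudogene in GENCODE M21.

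Levels of different genes were compared as RPKM, the scaled CPM divided by the length of the gene's exons in kb. Mmp3 (stromelysin-1, which cuts proteoglycans and fibronectin and activates other MMPs) had the highest mean over all libraries among the members, at 224 RPKM. Timp1, a broad secreted inhibitor, followed at 117 RPKM. Adam9, Timp2 and Adam10 averaged 47.8, 45.1 and 42 RPKM. Mmp10 (stromelysin-2) and Adam17 (the TNF convertase) averaged 16.9 and 16.8 RPKM, levels that lie close together, and Adamts1 averaged 14.1 RPKM. Mmp1b averaged 7.64 RPKM, Mmp9 7.04 RPKM, Mmp13 3.7 RPKM and Mmp14 2.71 RPKM.

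Summed over all Mmp members, the level fell into a high and a low range. The sum averaged 377 RPKM (290.1 to 462) in lung libraries labelled shAsns-1, 307 RPKM (243 to 361) in lung libraries labelled shAsns-2 and 425 RPKM (323 to 535) in lung shRenilla libraries. It averaged 318 RPKM (207 to 439) in tumor libraries labelled shAsns-1, but 82.5 RPKM (73.5 to 89.2) in tumor libraries labelled shAsns-2 and 83.5 RPKM (67 to 106) in tumor shRenilla libraries. The 2 last groups did not overlap with any of the other 4. Mmp3 alone made up 87%, 86.3% and 87.1% of the sum in the 3 lung groups (shAsns-1, shAsns-2, shRenilla). In tumors Mmp3 made up 88.5% of the sum in libraries labelled shAsns-1, 60.9% in those labelled shAsns-2 and 57.2% in shRenilla libraries. Without Mmp3 the sum in lung averaged 48.6 RPKM (shAsns-1), 42.3 RPKM (shAsns-2) and 54.4 RPKM (shRenilla). The same sum in tumors averaged 35.4, 32.2 and 35.1 RPKM in shAsns-1, shAsns-2 and shRenilla libraries, which lie close together.

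**Figure D1:**
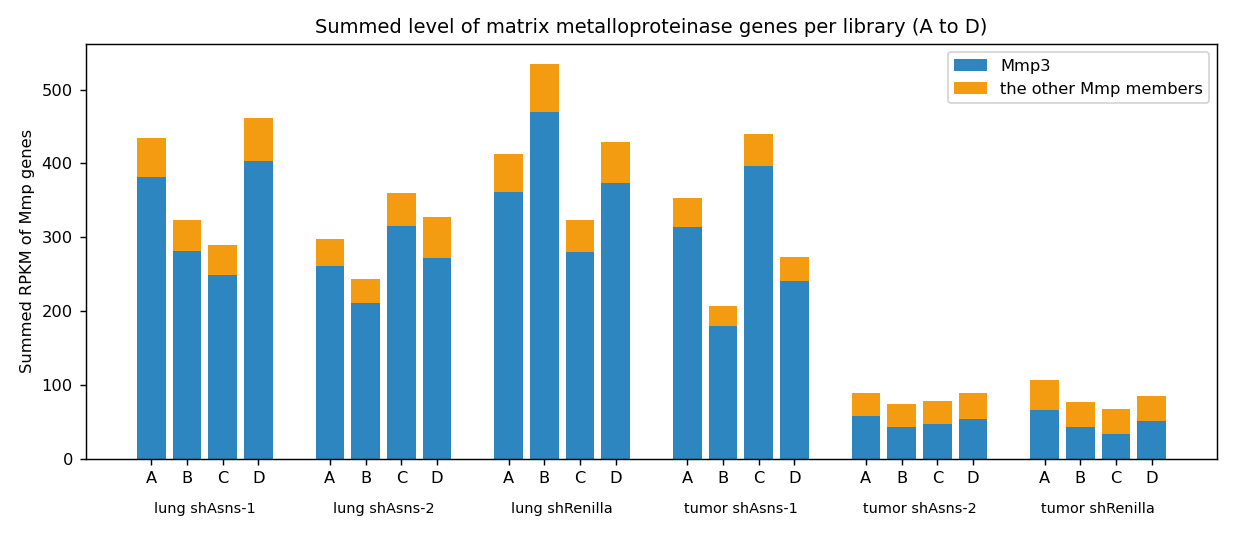
Summed RPKM of the Mmp members in each library (A to D), lung groups left of tumor groups, with the part of Mmp3 drawn below that of the other Mmp members. The bars of tumor shAsns-2 and tumor shRenilla libraries end between 67 and 106 RPKM and those of the other 4 groups between 207 and 535 RPKM.

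In primary tumors, 19 of the 38 tested members (50%) differed between libraries labelled shAsns-1 and shRenilla, against 33.9% of all tested genes (edgeR's quasi-likelihood test, Benjamini-Hochberg adjusted p under 0.05). The stromelysin Mmp3, the near copies Mmp1a and Mmp1b and the proteoglycan-cutting Adamts9 were higher, and Adam12, Adamts1 and the gelatinase Mmp9 were lower. In all, 6 members were higher and 13 lower, against 16.2% and 17.7% of all tested genes. The median size of the log2 fold change was 0.71 over the tested members and 0.29 over all tested genes. In bulk samples, fewer cells of a type and less RNA per cell cannot be told apart.

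Mmp3 had 564, 324, 715 and 434 CPM in tumor libraries A to D labelled shAsns-1, against 118, 77.7, 61 and 91.5 CPM in tumor shRenilla libraries. The lowest library labelled shAsns-1 was over the highest shRenilla library, and Mmp3 rose (log2 fold change ± SE, given in this form from here on, 2.55 ± 0.22, adjusted p = 2.72e-09). Tumor libraries labelled shAsns-2 had 104, 77, 85.2 and 96.4 CPM and overlapped with tumor shRenilla libraries.

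Mmp1a and Mmp1b are the mouse genes related in sequence to the gene of the interstitial collagenase. They are listed with the collagenases on that ground, and whether their products cut collagen was not measured. Mmp1a had 6.75, 5.47, 8.12 and 5.75 CPM in tumor libraries labelled shAsns-1, 0.598, 1.54, 1.46 and 1.57 CPM in those labelled shAsns-2 and 1.89, 0.998, 0.768 and 1.4 CPM in tumor shRenilla libraries. Mmp1b had 20.1, 14.5, 17.1 and 16.5 CPM in tumor libraries labelled shAsns-1, 4.78, 4.91, 4.54 and 4.91 CPM in those labelled shAsns-2 and 4.75, 3.78, 4.64 and 5.18 CPM in tumor shRenilla libraries. In both genes the libraries labelled shAsns-1 lay above all 8 other tumor libraries. Against shRenilla the log2 fold change was 2.37 ± 0.26, adjusted p = 1.13e-07 for Mmp1a and 1.89 ± 0.15, adjusted p = 2.14e-10 for Mmp1b. Mmp10 (-0.19 ± 0.24, adjusted p = 0.564) and Mmp13, the collagenase-3 gene (-0.70 ± 0.29, adjusted p = 0.0609), were not called.

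The gelatinase Mmp9, which cuts basement membrane collagen, had 9.69, 9.06, 11.7 and 12.6 CPM in tumor libraries labelled shAsns-1, 29.9, 29.6, 31.4 and 47.4 CPM in those labelled shAsns-2 and 34.3, 34.2, 45.4 and 25 CPM in tumor shRenilla libraries. All 4 libraries labelled shAsns-1 were below the 8 others, and Mmp9 fell (-1.69 ± 0.25, adjusted p = 1.05e-05 against shRenilla). Mmp14, a membrane-anchored collagenase that activates Mmp2, averaged 11.6 ± 1.29 CPM in tumor libraries labelled shAsns-1 and 18.8 ± 3.73 CPM in tumor shRenilla libraries (SD, n = 4 each), a log2 fold change of -0.70 ± 0.23, adjusted p = 0.0206. This call was lost without any 1 of tumor shAsns-1 A and tumor shRenilla C (adjusted p between 0.0615 and 0.0785), and with no filter on low counts (adjusted p = 0.0593). Mmp12, the macrophage metalloelastase, had 0.267, 0.308, 0.366 and 0.222 CPM in tumor libraries labelled shAsns-1 and 0.556, 0.784, 0.601 and 1.26 CPM in tumor shRenilla libraries. Its fall (-1.45 ± 0.53, adjusted p = 0.038) was lost without any 1 of tumor shAsns-1 A, B, C and D and tumor shRenilla B and D (adjusted p between 0.0521 and 0.132), by limma with library weights (adjusted p = 0.0663), and with no filter on low counts (adjusted p = 0.0933). Mmp2, the other gelatinase, had at most 0.811 CPM in any library and was not called in tumors (-1.09 ± 0.43, adjusted p = 0.0504).

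Among the ADAMTS enzymes, Adamts9 and Adamts1, which both cut versican and aggrecan, moved in opposite directions. Adamts9 had 2.94, 5.39, 4.65 and 5.03 CPM in tumor libraries labelled shAsns-1, 0.717, 1.34, 0.971 and 1.06 CPM in those labelled shAsns-2 and 0.927, 0.285, 0.734 and 0.666 CPM in tumor shRenilla libraries. Adamts1 had 22.5, 34.7, 25.3 and 24.5 CPM in tumor libraries labelled shAsns-1, 124, 167, 148 and 187 CPM in those labelled shAsns-2 and 197, 190.0, 218 and 141 CPM in tumor shRenilla libraries. Neither gene's libraries labelled shAsns-1 overlapped with the other tumor libraries. Against shRenilla the log2 fold change was 2.78 ± 0.30, adjusted p = 7.38e-08 for Adamts9 (6:92772699-92943492) and -2.80 ± 0.21, adjusted p = 1.72e-10 for Adamts1 (16:85793827-85803113). Of the exon bases of Adamts9, 12% overlap another gene, and the strand setting of the counting is not given in the sources used here. Adamts6 was lower (-1.31 ± 0.31, adjusted p = 0.00173). Adamts14, which trims procollagen ends and is named after its values were seen, was higher (0.74 ± 0.21, adjusted p = 0.00752).

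Adam12, which releases the growth factor HB-EGF and cuts IGF-binding proteins, had the largest fall among the tested members. It had 6.67, 5.2, 4.51 and 5.53 CPM in tumor libraries labelled shAsns-1, 32.3, 34, 37 and 33.3 CPM in those labelled shAsns-2 and 42.1, 42.3, 39.9 and 34 CPM in tumor shRenilla libraries. The log2 fold change against shRenilla was -2.86 ± 0.17, adjusted p = 3.36e-12. Adam8 (-1.10 ± 0.21, adjusted p = 1.96e-04) and Adam19, which can release neuregulin (-0.63 ± 0.16, adjusted p = 0.00271), were also lower. So was Adam1a (-1.11 ± 0.31, adjusted p = 0.00819), of whose exon bases 63.7% overlap other genes. Adam33 was higher but had at most 0.694 CPM in any library (1.79 ± 0.46, adjusted p = 0.00396). The widely expressed sheddases were not called, with log2 fold changes of -0.29 ± 0.12, adjusted p = 0.0567 for Adam17, -0.04 ± 0.15, adjusted p = 0.876 for Adam10 (which cuts Notch and E-cadherin) and -0.14 ± 0.17, adjusted p = 0.569 for Adam9. The remaining lower members, named after their values were seen, were Adam21 (-1.14), Adam4 (-0.86) and Adamts8 (-0.59, lost without tumor shRenilla C (adjusted p = 0.0806)).

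Timp1 was lower in the same comparison. It had 102, 70.4, 79.98 and 70.0 CPM in tumor libraries labelled shAsns-1 and 164, 124, 128 and 114 CPM in tumor shRenilla libraries, which did not overlap, and a log2 fold change of -0.72 ± 0.19, adjusted p = 0.00492. Timp2, which also takes part in the activation of Mmp2 by Mmp14, averaged 163 ± 7.67 CPM in tumor libraries labelled shAsns-1 and 174 ± 16 CPM in tumor shRenilla libraries (SD, n = 4 each) and was not called (-0.09 ± 0.08, adjusted p = 0.427). By edgeR over all groups Timp2 was called in none of the 9 pairwise comparisons, while limma called it in lung against tumor libraries labelled shAsns-1 (0.17, adjusted p = 0.0182), in lung libraries labelled shAsns-1 against shAsns-2 (0.18, adjusted p = 0.0244) and in lung libraries labelled shAsns-2 against shRenilla (-0.18, adjusted p = 0.0194). Timp3, which binds the matrix and also inhibits Adam17, had at most 0.631 CPM in these 8 libraries and was not called (-0.64 ± 0.65, adjusted p = 0.474).

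**Figure D2:**
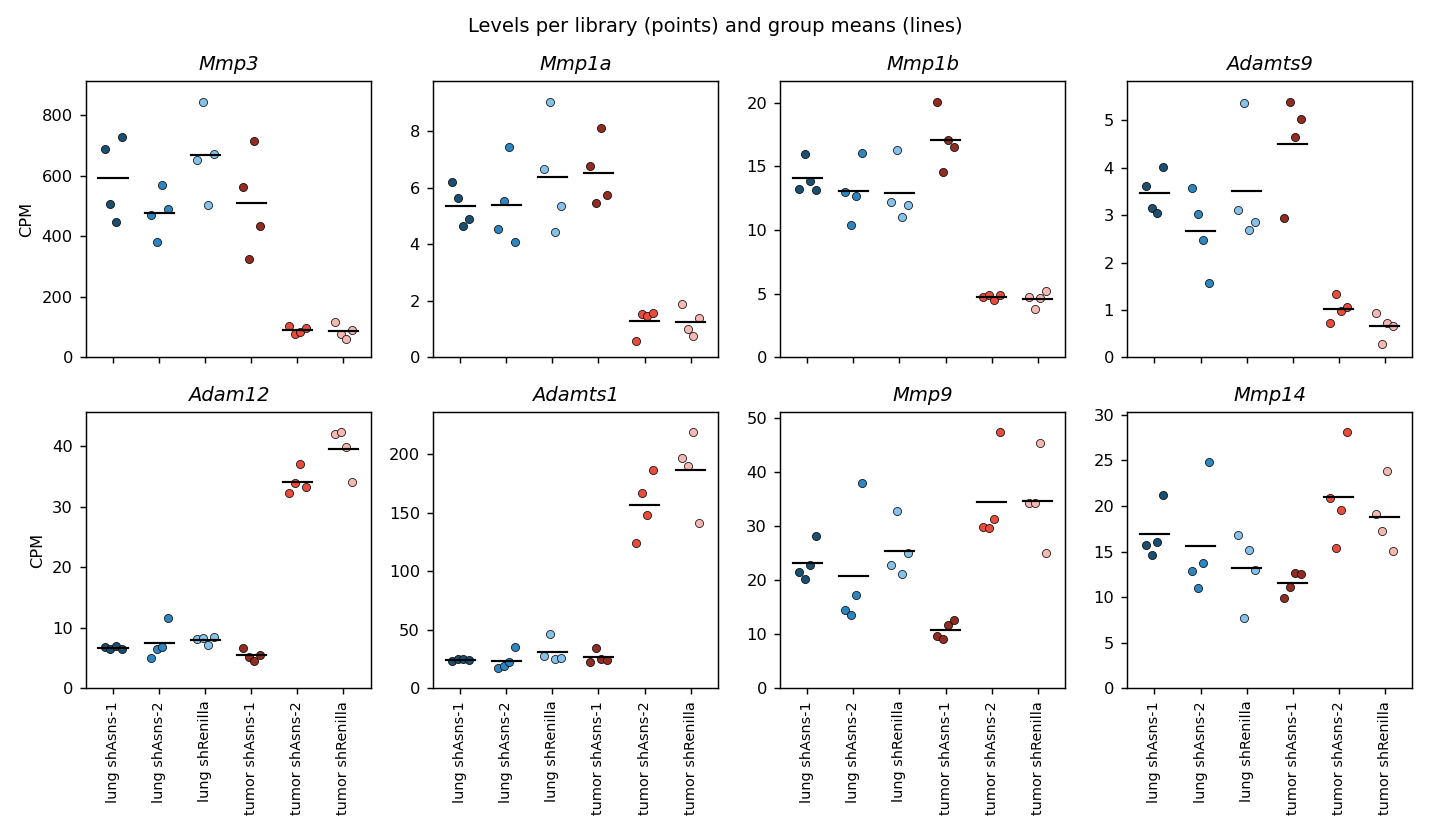
CPM of Mmp3, Mmp1a, Mmp1b, Adamts9, Adam12, Adamts1, Mmp9 and Mmp14 in each library (points) with group means (lines), lung groups left of tumor groups, each axis starting at 0. Mmp3 lay between 324 and 845 CPM in the 3 lung groups and the tumor libraries labelled shAsns-1, and between 61 and 118 CPM in the other 8 tumor libraries.

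Against tumor libraries labelled shAsns-2, those labelled shAsns-1 differed in 18 of the 38 tested members (47.4%), against 27.1% of all tested genes. Again 6 were higher and 12 lower, beside 12.1% and 15.0% of all tested genes. This comparison shares the libraries labelled shAsns-1 with the one against shRenilla, so its values are given beside the others and are no independent result. The log2 fold changes were 2.49 ± 0.22, adjusted p = 6.28e-09 for Mmp3, 2.23 ± 0.27, adjusted p = 6.80e-07 for Mmp1a and 1.83 ± 0.15, adjusted p = 8.61e-10 for Mmp1b. They were 2.06 ± 0.29, adjusted p = 7.49e-06 for Adamts9, -2.65 ± 0.17, adjusted p = 1.42e-11 for Adam12, -2.55 ± 0.21, adjusted p = 1.22e-09 for Adamts1 and -1.68 ± 0.25, adjusted p = 1.70e-05 for Mmp9. Adam17, not called against shRenilla, was lower here, with 99, 108, 107 and 112 CPM in tumor libraries labelled shAsns-1 and 154, 152, 128 and 158 CPM in those labelled shAsns-2 (-0.48 ± 0.12, adjusted p = 0.00381). Adam8 (-1.49 ± 0.21, adjusted p = 6.82e-06), Mmp14 (-0.85 ± 0.23, adjusted p = 0.00804) and Adam19 (-0.68 ± 0.16, adjusted p = 0.0021) were lower as well.

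Several smaller calls of this comparison were lost in fits that left out 1 library. Timp1 (-0.53 ± 0.19, adjusted p = 0.0394) was lost without any 1 of tumor shAsns-1 B, C and D and tumor shAsns-2 A, C and D (adjusted p between 0.0769 and 0.121), and with no filter on low counts (adjusted p = 0.101). Adamts6 (-0.99 ± 0.31, adjusted p = 0.0198) was lost without any 1 of tumor shAsns-1 A and B and tumor shAsns-2 B (adjusted p between 0.05004 and 0.124), and with no filter on low counts (adjusted p = 0.0585). Adam1a (-1.10 ± 0.32, adjusted p = 0.0131) was lost without tumor shAsns-2 D (adjusted p = 0.089). Adam5, a testis ADAM in mice, had 9, 8, 14 and 2 reads in tumor libraries labelled shAsns-1 and 0, 3, 0 and 0 reads in those labelled shAsns-2 (adjusted p = 0.0222), and this call was lost without any 1 of tumor shAsns-1 C and tumor shAsns-2 C and D (adjusted p between 0.0582 and 0.0756). The others, named after their values were seen, were Adamts10 (0.84), Adam4 (-0.74) and Adamts8 (-0.62). Adamts10 was lost without tumor shAsns-2 C (adjusted p = 0.0551). Adamts8 was lost without tumor shAsns-2 D (adjusted p = 0.0833). Adam4 was lost without any 1 of tumor shAsns-1 A, B, C and D and tumor shAsns-2 A, C and D (adjusted p between 0.0596 and 0.134), with the other scaling (adjusted p = 0.051), and with no filter on low counts (adjusted p = 0.061).

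Between tumor libraries labelled shAsns-2 and tumor shRenilla libraries, 0 of 38 members were called, beside 0.0634% of all tested genes. At an unadjusted p under 0.05 edgeR gave 2 members and 893 genes. Adamts14, named after its values were seen, came closest, with 4.66, 3.54, 3.5 and 7.74 CPM in tumor libraries labelled shAsns-2 and 2.3, 2.6, 2.57 and 2.14 CPM in tumor shRenilla libraries, which did not overlap (1.00 ± 0.21, adjusted p = 0.0698). DESeq2 called it (adjusted p = 0.00561), as did edgeR with no filter on low counts (0.0419) and without tumor shAsns-2 C (0.0291). The log2 fold change of Mmp3 was 0.06 ± 0.21, adjusted p = 0.972.

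The comparison of sites asked how cells recovered from lung differed from cells recovered from primary tumors with the same hairpin. With shRenilla, 12 of the 38 tested members differed (31.6%), against 21.8% of all tested genes. Of these, 7 were higher in lung, beside 12.0% of all tested genes, and 5 were lower, beside 9.82%. Mmp3 had 651, 845, 504 and 672 CPM in lung shRenilla libraries, against 118, 77.7, 61 and 91.5 CPM in tumor shRenilla libraries, and rose (2.94 ± 0.23, adjusted p = 3.50e-10). Mmp1a (2.34 ± 0.26, adjusted p = 1.67e-07), Mmp1b (1.49 ± 0.14, adjusted p = 1.58e-08) and Adamts9 (2.42 ± 0.30, adjusted p = 1.02e-06) were also higher in lung.

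Mmp13 and Mmp10, which were not called between the tumor groups, were higher in lung shRenilla libraries. Mmp13 had 15.1, 19.2, 12.2 and 17.8 CPM in lung shRenilla libraries and 8.05, 5.7, 4.94 and 7.15 CPM in tumor shRenilla libraries, which did not overlap (1.32 ± 0.28, adjusted p = 9.49e-04). Mmp10 had 41.4, 53.9, 34.1 and 48.5 CPM in lung shRenilla libraries and 33.1, 24.8, 16.6 and 27.5 CPM in tumor shRenilla libraries (0.80 ± 0.24, adjusted p = 0.0158), a call lost without tumor shRenilla C (adjusted p = 0.0697), and with no filter on low counts (adjusted p = 0.0618). Timp3 had 2.23, 2.44, 0.824 and 2.03 CPM in lung shRenilla libraries and 0.631, 0.178, 0.467 and 0.42 CPM in tumor shRenilla libraries (2.14 ± 0.52, adjusted p = 0.00329). Syn3 overlaps 21.3% of the exon bases of Timp3. Adamts1 had 27.4, 46.5, 24.6 and 26.2 CPM in lung shRenilla libraries, all below every tumor shRenilla library (-2.58 ± 0.21, adjusted p = 7.93e-10), and Adam12 had 8.18, 8.31, 7.09 and 8.46 CPM (-2.30 ± 0.17, adjusted p = 1.18e-10). Adamts6 (-0.99 ± 0.30, adjusted p = 0.0193) was lower but lost without lung shRenilla C (adjusted p = 0.0503), and with no filter on low counts (adjusted p = 0.0515). Adam1a (-0.89 ± 0.31, adjusted p = 0.039) was lost without any 1 of lung shRenilla A, C and D and tumor shRenilla A, B and C (adjusted p between 0.0626 and 0.12). Adam4 (-0.77), named after its values were seen, was lost without any 1 of lung shRenilla A, B, C and D and tumor shRenilla A, C and D (adjusted p between 0.0521 and 0.104).

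With shAsns-2, 14 of the 38 tested members differed between lung and tumor libraries (36.8%), against 20.9% of all tested genes. Here 8 were higher and 6 lower in lung, beside 10.1% and 10.9% of all tested genes. Without lung shAsns-2 D, which stood apart, the count was 19 (beside 31.1% of all tested genes), and without it and lung shRenilla B the count was 22, of which 16 were lower (beside 39% of all tested genes, 20.9% lower). The members called in addition without lung shAsns-2 D were Adam19, Adam1a, Adam4, Adam8, Adam9, Adamts6, Mmp14 and, named after its values were seen, Adam22, all lower in lung. Mmp3 had 469.5, 379.7, 568 and 489.5 CPM in lung libraries labelled shAsns-2, against 104, 77, 85.2 and 96.4 CPM in tumor libraries labelled shAsns-2 (2.40 ± 0.22, adjusted p = 1.25e-08). Mmp1a (1.96 ± 0.27, adjusted p = 5.52e-06), Mmp1b (1.45 ± 0.15, adjusted p = 6.45e-08) and Adamts9 (1.30 ± 0.30, adjusted p = 0.00217) were higher in lung. Adamts1 (-2.75 ± 0.21, adjusted p = 4.26e-10), Adam12 (-2.20 ± 0.17, adjusted p = 3.74e-10) and Adam17 (-0.48 ± 0.12, adjusted p = 0.00415) were lower in lung.

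The values of several members with this hairpin depended on lung shAsns-2 D. Mmp9 had 14.5, 13.6, 17.2 and 38 CPM in lung libraries A to D labelled shAsns-2 and 29.9, 29.6, 31.4 and 47.4 CPM in tumor libraries labelled shAsns-2. Its log2 fold change was -0.74 ± 0.24, adjusted p = 0.0324, and -1.20 (adjusted p = 4.58e-05) without lung shAsns-2 D. The Mmp9 call was lost without any 1 of lung shAsns-2 A, B and C and tumor shAsns-2 D (adjusted p between 0.107 and 0.147), with no filter on low counts (adjusted p = 0.116), and in a fit of the 2 groups alone (adjusted p = 0.133). Mmp13 (0.93 ± 0.29, adjusted p = 0.0232) was at 0.50 (adjusted p = 0.135) without lung shAsns-2 D, and was lost without any 1 of lung shAsns-2 D and tumor shAsns-2 B and C (adjusted p between 0.0731 and 0.135), by limma with library weights (adjusted p = 0.0876), with no filter on low counts (adjusted p = 0.0721), in a fit of the 2 groups alone (adjusted p = 0.0868), and without both lung libraries that stood apart (adjusted p = 0.113). Timp3 (1.63 ± 0.54, adjusted p = 0.0331) was lost without any 1 of lung shAsns-2 D and tumor shAsns-2 A, B and C (adjusted p between 0.0562 and 0.121), by limma with library weights (adjusted p = 0.0924), with no filter on low counts (adjusted p = 0.103), and without both lung libraries that stood apart (adjusted p = 0.0848). Adamts5, an aggrecan-cutting enzyme with at most 0.911 CPM in any library (-1.17 ± 0.42, adjusted p = 0.0452), was lost without any 1 of lung shAsns-2 A, B and C and tumor shAsns-2 A, B, C and D (adjusted p between 0.0556 and 0.155), with no filter on low counts (adjusted p = 0.0505), and in a fit of the 2 groups alone (adjusted p = 0.0600). Adam5 had 4, 11, 17 and 5 reads in lung libraries labelled shAsns-2 and 0, 3, 0 and 0 reads in tumor libraries labelled shAsns-2 (adjusted p = 0.0179), a call lost without any 1 of lung shAsns-2 C and tumor shAsns-2 C and D (adjusted p between 0.0517 and 0.0755). Named after their values were seen, Adamts8 (-0.67) was lost without tumor shAsns-2 D (adjusted p = 0.0704), and Adamts10 (0.70) was lost without any 1 of lung shAsns-2 A, B, C and D and tumor shAsns-2 B, C and D (adjusted p between 0.0544 and 0.139), with no filter on low counts (adjusted p = 0.0754), and in a fit of the 2 groups alone (adjusted p = 0.0847).

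With shAsns-1, lung and tumor libraries differed in 5 of the 38 tested members (13.2%), against 8.55% of all tested genes. All 5 were higher in lung, beside 6.0% higher and 2.54% lower among all tested genes. The genes with the largest site differences under the other hairpins were not called, with log2 fold changes of 0.22 ± 0.21, adjusted p = 0.55 for Mmp3, 0.29 ± 0.17, adjusted p = 0.288 for Adam12 and -0.15 ± 0.20, adjusted p = 0.686 for Adamts1. Mmp1a (-0.29 ± 0.23, adjusted p = 0.45), Mmp1b (-0.28 ± 0.14, adjusted p = 0.195) and Adamts9 (-0.39 ± 0.25, adjusted p = 0.339) were not called either by edgeR over all groups. Limma with library weights gave 15 members (beside 32.8% of all tested genes), edgeR on the 2 groups alone 11 (beside 29.4%), and edgeR without both lung libraries that stood apart 8 (beside 23.8%). By limma 12 were higher and 3 lower in lung, beside 17.5% and 15.3% of all tested genes. On the 2 groups alone 10 were higher and 1 lower, beside 14.9% and 14.4%. Without both lung libraries that stood apart all 8 were higher, beside 12.9% higher and 10.9% lower.

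The 5 members higher in lung libraries labelled shAsns-1 were Timp3, Mmp12, Mmp13, Mmp2 and Mmp9. Mmp13 had 17.9, 12.6, 15.9 and 24.6 CPM in lung libraries labelled shAsns-1 and 4.38, 2.7, 4.99 and 3.69 CPM in tumor libraries labelled shAsns-1, and rose (2.16 ± 0.29, adjusted p = 4.39e-05). Mmp9 had 21.5, 20.2, 22.8 and 28.2 CPM in lung libraries labelled shAsns-1 and 9.69, 9.06, 11.7 and 12.6 CPM in tumor libraries labelled shAsns-1 (1.10 ± 0.25, adjusted p = 0.00702). In neither gene did the groups overlap.

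Timp3, Mmp12 and Mmp2 were highest in lung shAsns-1 D. Timp3 had 3.31, 1.28, 4.09 and 9.57 CPM in lung libraries A to D labelled shAsns-1 and 0.229, 0.462, 0.197 and 0.222 CPM in tumor libraries labelled shAsns-1 (4.06 ± 0.53, adjusted p = 3.35e-05, and 3.42 with adjusted p = 1.26e-04 without lung shAsns-1 D). Mmp12 had 1.79, 0.934, 1.18 and 5.64 CPM in lung libraries labelled shAsns-1 and 0.267, 0.308, 0.366 and 0.222 CPM in tumor libraries labelled shAsns-1 (3.00 ± 0.49, adjusted p = 4.08e-04, and 2.14 with adjusted p = 0.00235 without lung shAsns-1 D). Mmp2 had 0.533, 0.272, 0.374 and 0.811 CPM in lung libraries labelled shAsns-1 and 0.191, 0.193, 0.141 and 0.0833 CPM in tumor libraries labelled shAsns-1 (1.71 ± 0.40, adjusted p = 0.00889), a call lost without lung shAsns-1 D (adjusted p = 0.0596). Some markers of other cells were also higher in lung than in tumor libraries labelled shAsns-1, and others were not called. The 9 fibroblast markers summed to 35.5, 34.3, 34.6 and 70 CPM in lung libraries A to D labelled shAsns-1, and to 24 to 32.4 CPM in tumor libraries labelled shAsns-1, and 3 of the 4 tested (Col1a2, Col3a1 and Dcn) were called higher in lung. Pdgfra alone had 28.4 to 41.2 CPM of the lung sums and was not called, and the 8 others summed to 3.75 to 28.8 CPM in lung libraries and 0.915 to 2.3 CPM in tumor libraries labelled shAsns-1. Without lung shAsns-1 D the Col1a2 call was lost (1.30, against 2.47 with it, adjusted p = 0.143), while Col3a1 (4.91, against 6.59) and Dcn (1.75, against 2.54) stayed called. Col3a1 had 1.6, 0.311, 0.669 and 8.53 CPM in lung libraries A to D labelled shAsns-1. The 7 measured macrophage markers summed to 14.4 to 21.5 CPM in lung libraries labelled shAsns-1 and 10.1 to 12.9 CPM in tumor libraries labelled shAsns-1, and 1 of the 4 tested, Lyz2, was higher in lung. Of these sums Mrc1 alone had 10.3 to 11.7 CPM in the lung libraries and 7.59 to 10.55 CPM in the tumor libraries. The 5 measured neutrophil markers, of 6 listed, summed to 9.26 to 11.9 CPM in lung libraries labelled shAsns-1 and 3.64 to 4.82 CPM in tumor libraries labelled shAsns-1. Of the 2 tested, S100a8 was higher in lung (1.65 ± 0.22, adjusted p = 4.39e-05), also in each of the 8 fits that left out 1 library. Cxcr2 was not, with 1.28 to 2.17 CPM in lung libraries and 1.28 to 2.08 CPM in tumor libraries labelled shAsns-1. The part of these cells in the levels of Timp3, Mmp12, Mmp13, Mmp2 and Mmp9 was not tested.

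**Figure D3:**
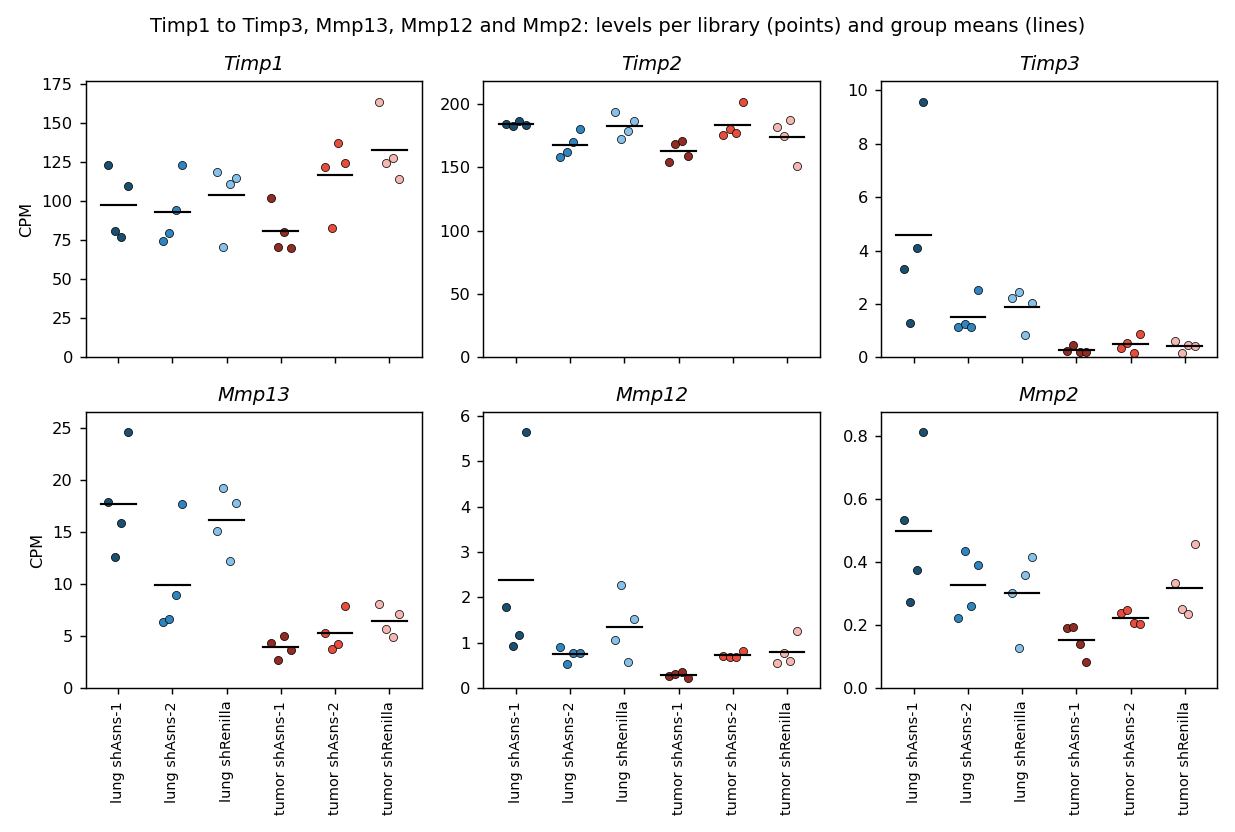
CPM of Timp1, Timp2, Timp3, Mmp13, Mmp12 and Mmp2 in each library (points) with group means (lines), lung groups left of tumor groups, each axis starting at 0. Timp3 lay between 0.824 and 9.57 CPM in lung libraries and between 0.173 and 0.86 CPM in tumor libraries, and Timp2 had group means of 163 to 184 CPM.

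Within lung, no comparison of hairpins called a member with edgeR. Libraries labelled shAsns-1 gave 0 of 38 against shRenilla (0.206% of all tested genes), with 3 members and 1665 genes at an unadjusted p under 0.05, and no other tool or setting called a member. Libraries labelled shAsns-2 gave 0 of 38 against shRenilla (0.0% of all tested genes), with 7 members and 1068 genes at an unadjusted p under 0.05, while limma with library weights called 11, all lower, beside 12.5% of all tested genes (9.06% lower). Libraries labelled shAsns-1 gave 0 of 38 against shAsns-2 (0.261% of all tested genes), with 5 members and 707 genes at an unadjusted p under 0.05. There DESeq2 called 1 member (Mmp12) and limma 10, all higher, beside 15.2% of all tested genes (8.63% higher), and edgeR called 2 (Mmp13 and Timp3) without lung shAsns-2 D and 2 (Mmp12 and Timp3) without lung shAsns-1 B. The log2 fold changes for shAsns-1 against shAsns-2 in lung were 1.65 ± 0.43, adjusted p = 0.129 for Mmp12, 1.59 ± 0.42, adjusted p = 0.14 for Timp3 and 0.84 ± 0.27, adjusted p = 0.333 for Mmp13. Mmp3 averaged 592 ± 136 CPM in lung libraries labelled shAsns-1, 477 ± 77.6 CPM in those labelled shAsns-2 and 668 ± 140.0 CPM in lung shRenilla libraries (SD, n = 4 each).

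**Figure D4:**
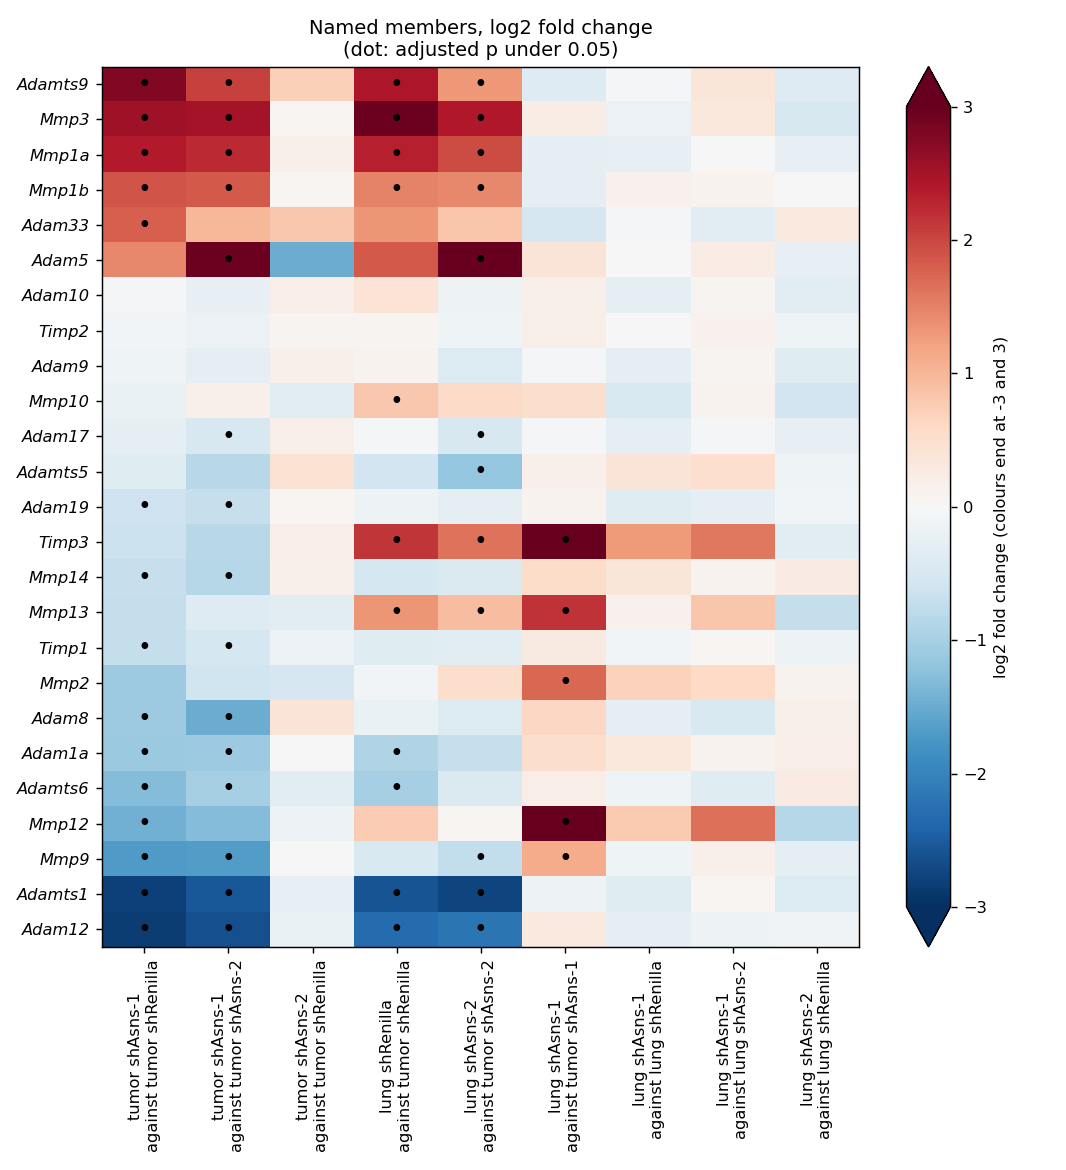
Log2 fold changes of the 25 named members (rows, ordered by tumor shAsns-1 against tumor shRenilla) in the 9 pairwise comparisons (columns), red for higher and blue for lower, with a dot where edgeR's adjusted p was under 0.05. The columns for tumor shAsns-2 against tumor shRenilla and for the 3 lung comparisons hold no dot.

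Whether the difference of shAsns-1 against shRenilla depended on the site was tested as the lung difference minus the tumor difference. It was called for 12 of the 38 tested members, beside 14.2% of all tested genes. The difference of the log2 fold changes was -2.72 ± 0.30, adjusted p = 9.42e-07 for Mmp3, -2.81 ± 0.39, adjusted p = 1.98e-05 for Adamts9, -2.63 ± 0.35, adjusted p = 9.03e-06 for Mmp1a and -1.77 ± 0.20, adjusted p = 9.42e-07 for Mmp1b, all higher in the tumor comparison. For the lower members it was 2.59 ± 0.24, adjusted p = 4.75e-08 for Adam12, 2.43 ± 0.29, adjusted p = 1.85e-06 for Adamts1 and 1.55 ± 0.35, adjusted p = 0.00336 for Mmp9. These 7 calls held whichever library was left out. Mmp12 (2.23 ± 0.67, adjusted p = 0.0262), Mmp2 (1.78 ± 0.56, adjusted p = 0.0323), Adam1a (1.42 ± 0.45, adjusted p = 0.0349), Mmp14 (1.06 ± 0.32, adjusted p = 0.0286) and Adam33 (-1.83 ± 0.63, adjusted p = 0.0496) were also called, but each lost its call in several of the fits that left out 1 library. The Mmp12 call was lost without any 1 of lung shAsns-1 D and tumor shAsns-1 D and tumor shRenilla D (adjusted p between 0.0575 and 0.0819), and with no filter on low counts (adjusted p = 0.0677). That of Mmp14 was lost without any 1 of lung shAsns-1 D and lung shRenilla B and tumor shAsns-1 A and tumor shRenilla C (adjusted p between 0.0581 and 0.0699), and with no filter on low counts (adjusted p = 0.0784). That of Mmp2 was lost without any 1 of lung shAsns-1 A and D and lung shRenilla B and tumor shAsns-1 C and D and tumor shRenilla A and D (adjusted p between 0.0518 and 0.0852), by DESeq2 (adjusted p = 0.0531), and with no filter on low counts (adjusted p = 0.0659). That of Adam1a was lost without any 1 of lung shAsns-1 A and D and lung shRenilla C and tumor shAsns-1 B and C and tumor shRenilla A, B and C (adjusted p between 0.0572 and 0.0759). Adam33 lost its call without any 1 of lung shAsns-1 B and D and lung shRenilla A, B and D and tumor shAsns-1 A, B and C and tumor shRenilla A, B, C and D (adjusted p between 0.0542 and 0.107), by DESeq2 (adjusted p = 0.0532), by limma with library weights (adjusted p = 0.0552), and with no filter on low counts (adjusted p = 0.075). Without lung shAsns-1 D, all 5 of these were lost. For shAsns-2 against shRenilla the same test called 0 of 38 members (0.0% of all tested genes), with 6 members and 599 genes at an unadjusted p under 0.05 in edgeR, and no other tool or setting called one.

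The neighbours on chromosome 9 were called in different comparisons, and the differences between these genes were not tested. For tumor libraries labelled shAsns-1 against shRenilla, Mmp1b, Mmp3 and Mmp1a rose by 1.89 to 2.55 on the log2 scale, while Mmp12, which lies next to Mmp1b, fell (-1.45, with the losses given above) and Mmp13 and Mmp10 were not called. Of all tested genes 16.2% were higher and 17.7% lower there. In lung against tumor shRenilla libraries 5 of the 6 tested cluster genes were called higher, beside 12.0% of all tested genes, and Mmp12 was not (0.77 ± 0.44, adjusted p = 0.225). In lung against tumor libraries labelled shAsns-1 only Mmp13 and Mmp12 of the 6 were called, both higher, beside 6.0% of all tested genes. Of the Mmp1b exon bases 10.8% overlap Mmp12, and 2.2% of the Mmp12 exon bases lie in Mmp1b.

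**Figure D5:**
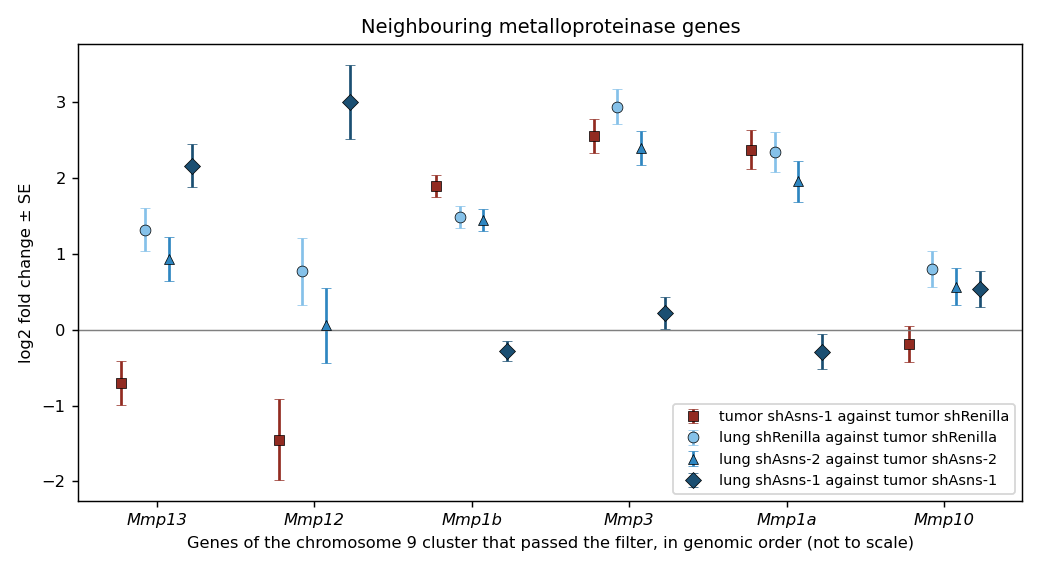
Log2 fold change ± SE of the 6 tested genes of the chromosome 9 cluster in genomic order, for tumor shAsns-1 against tumor shRenilla and for lung against tumor libraries with each hairpin. Mmp1b, Mmp3 and Mmp1a lie between 1.45 and 2.94 in 3 of the comparisons and near 0 for shAsns-1 lung against tumor, while Mmp13 is above 0 only in the lung comparisons.

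Some of the comparisons share libraries, so overlaps between those are not given. The pairs below share none. Tumor shAsns-1 against tumor shRenilla and lung shAsns-2 against tumor shAsns-2 both called 8 members, which is 42.1% of the 19 and 57.1% of the 14, all in the same direction. Mmp3, Mmp1a, Mmp1b and Adamts9 were higher in both, and Adam12, Adamts1, Mmp9 and Adamts8 lower in both. Over all tested genes both called 1709, of which 1688 had the same direction, which is 39.5% and 63.9% of the lists. Tumor shAsns-1 against tumor shAsns-2 and lung shRenilla against tumor shRenilla both called 9 members, which is 50% of the 18 and 75% of the 12, again all in the same direction, with 4 higher and 5 lower. Over all tested genes both called 1673, of which 1666 had the same direction (48.7% and 60.6% of the lists).

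Some of the cell type markers also differed between these groups. The 8 epithelial markers summed to 455 to 611 CPM in tumor libraries labelled shAsns-1, 909.7 to 1048 CPM in those labelled shAsns-2 and 745 to 899 CPM in tumor shRenilla libraries. In lung they summed to 425 to 478 CPM (shAsns-1), 384 to 787 CPM (shAsns-2) and 428 to 600.2 CPM (shRenilla). Of the 7 tested, 5 were lower in tumor libraries labelled shAsns-1 against shRenilla and 4 were lower in lung against tumor shRenilla libraries. Of the 5, the Krt19 call was lost in 6 of the 8 fits that each left out 1 library. Krt8 and Krt18, with the highest levels, were in neither count. Krt8 had 184 to 245 CPM in tumor libraries labelled shAsns-1 and 165 to 184 CPM in tumor shRenilla libraries. Krt18 had 207 to 328 CPM in lung and 181 to 257 CPM in tumor shRenilla libraries. Of the 4 tested fibroblast markers Pdgfra alone was called higher in tumor libraries labelled shAsns-1 against shRenilla (0.79 ± 0.15, adjusted p = 2.87e-04), and the 8 other markers listed summed to 0.915 to 2.3 CPM in tumor libraries labelled shAsns-1 and 1.04 to 1.44 CPM in tumor shRenilla libraries. Pdgfra (1.05 ± 0.15, adjusted p = 1.26e-05) and Dcn (2.18 ± 0.56, adjusted p = 0.00576) were higher in lung than in tumor shRenilla libraries, where the 8 markers other than Pdgfra summed to 1.65 to 3.79 CPM in lung shRenilla libraries. The measured macrophage markers summed to 15 to 22 CPM in lung shRenilla libraries and 9.95 to 11.9 CPM in tumor shRenilla libraries. Most of this was Mrc1, with 10.3 to 18.1 CPM in lung and 6.94 to 9.39 CPM in tumor shRenilla libraries. Lyz2 had 1.04 to 1.82 CPM in lung and 0.175 to 0.445 CPM in tumor shRenilla libraries. Csf1r went the other way, with at most 0.107 CPM in lung and 0.178 to 0.482 CPM in tumor shRenilla libraries. The measured neutrophil markers summed to 5.23 to 9.00 CPM in lung shRenilla libraries and 2.74 to 4.75 CPM in tumor shRenilla libraries, and to 4.61 to 8.14 CPM in lung libraries labelled shAsns-2 and 2.27 to 4.02 CPM in tumor libraries labelled shAsns-2. S100a8 was higher in lung in both (1.69 ± 0.23, adjusted p = 4.64e-06 for shRenilla and 1.96 ± 0.25, adjusted p = 2.42e-06 for shAsns-2). It was also higher in tumor libraries labelled shAsns-1 against shRenilla (0.73 ± 0.24, adjusted p = 0.0205), a call lost in 3 of the 8 fits that each left out 1 library. The neutrophil marker Cxcr2 was not higher in lung. It had 1.09 to 1.59 CPM in lung and 1.21 to 3.005 CPM in tumor shRenilla libraries. With shAsns-2 it had 1.04 to 1.81 CPM in lung and 1.67 to 2.69 CPM in tumor libraries. S100a9 had at most 0.0535 CPM in any library. The part of all these cells in the metalloproteinase levels was not tested.

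Genes that act around these enzymes were counted from lists of activators, other inhibitors, partners and shed ligands, of which 40 of 49 genes were tested. In tumor libraries labelled shAsns-1 against shRenilla, 7 were higher, 16 lower and 17 not called, beside 16.2% higher and 17.7% lower of all tested genes. In lung against tumor shRenilla libraries 9 were higher, 9 lower and 22 not called, beside 12.0% higher and 9.82% lower of all tested genes. The counts of the single lists that follow stand beside the same shares. Of the 8 tested convertases and plasminogen genes, 1 was higher and 4 lower in the tumor comparison. Pcsk6, a convertase that activates secreted precursors, averaged 0.153 ± 0.0885 CPM in tumor libraries labelled shAsns-1 and 1.92 ± 0.464 CPM in tumor shRenilla libraries (SD, n = 4 each; -3.55 ± 0.37, adjusted p = 5.40e-08). Serpine2, a serine protease inhibitor, was higher, with 219 ± 66 CPM in tumor libraries labelled shAsns-1 and 70.2 ± 24.5 CPM in tumor shRenilla libraries (SD, n = 4 each; 1.64 ± 0.25, adjusted p = 1.28e-05). In lung against tumor shRenilla libraries Serpine2 was again higher (3.09 ± 0.26, adjusted p = 1.53e-09) and Pcsk6 lower (-3.35 ± 0.37, adjusted p = 1.25e-07).

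Of the 7 tested partners of Adam10 and Adam17, 2 were higher and 3 lower in the tumor comparison. Tspan15, a tetraspanin that binds Adam10, was higher (2.00 ± 0.22, adjusted p = 9.99e-08), and in lung against tumor shRenilla libraries likewise (2.14 ± 0.22, adjusted p = 3.78e-08). Of the 8 shed EGF family ligands, 2 were higher and 3 lower in the tumor comparison, and 4 were higher and 2 lower in lung against tumor shRenilla libraries. Ereg averaged 4.47 ± 4.67, 0.922 ± 0.218 and 1.55 ± 0.572 CPM in lung libraries (shAsns-1, shAsns-2, shRenilla; SD, n = 4 each) and averaged at most 0.113 CPM in each tumor group. Tgfa was higher in lung than in tumor shRenilla libraries (1.18 ± 0.11, adjusted p = 6.19e-09). Of the 6 other tested regulators 3 were lower in the tumor comparison, among them Tfpi2, an inhibitor that acts on plasmin and several MMPs (-2.81 ± 0.60, adjusted p = 6.99e-04). Of the 4 tested ADAMTS-like genes 2 were higher and 1 lower, Papln among the higher (1.65 ± 0.50, adjusted p = 0.0126). None of the 7 AP-1 subunit genes, whose products bind the motif printed above, was higher in tumor libraries labelled shAsns-1 against shRenilla, and 2 were lower. Their median log2 fold change was -0.61, beside -0.01 over all tested genes. In lung against tumor shRenilla libraries 3 of the 7 were lower and none was higher.

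The 41 members that did not pass the filter each had a read in at least 1 library, with mean levels of at most 0.209 CPM. They comprised Timp4, 12 Mmp genes, 17 Adam genes and 11 Adamts genes. The highest single value among them was 1.00 CPM, for Adamts2, a procollagen N-propeptidase, in lung shAsns-1 D. Adamts2 had 7, 4, 4 and 26 reads in lung libraries A to D labelled shAsns-1 and at most 3 reads in any other library, and it was highest in the same library as the fibroblast markers. Of the 6 membrane-type Mmp genes only Mmp14 was tested, and of the 3 procollagen N-propeptidases only Adamts14. The lowest mean level among the members that passed was also 0.209 CPM.

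Over the 9 pairwise comparisons edgeR called 27 of the 38 tested members at least once (71.1%), beside 48.8% of the 12625 tested genes, and 11 in none. The 11, named here after their values were seen, were Timp2, Adam9, Adam10, Adam15, Adam3, Adam18, Adam22, Adam32, Adamts4, Mmp11 and Mmp19. Their mean levels ran from 0.209 CPM for Mmp19 to 206 CPM for Adam10.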

How the data were processed

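RNA was extracted with Trizol and amplified with the Nugen Ovation kit, and reads were aligned with Bowtie2 to mm10 and counted with HTSeq, per the labels' protocols and the submitters' processing notes. The authors deposited whole-number read counts per gene symbol and library. Versions, annotation and strand setting are not given in the sources used here. No row lacked a gene. The 24 libraries (8480908 to 38049196 counts) were grouped by site and hairpin from their titles. Genes were filtered with filterByExpr, scaled by TMM and tested in 1 fit over the 6 groups by edgeR 4.0.16's quasi-likelihood test (R 4.3.3), with Benjamini-Hochberg adjustment over 12625 genes and a call at an adjusted p under 0.05. The biological coefficient of variation was 14.9%. RPKM used exon lengths from GENCODE M21, matched by symbol for all 79 members. Alternatives were DESeq2 1.42.0, limma 3.58.1 with library weights, another scaling, no filter, only the compared groups, a replicate block and leaving libraries out. Scripts ran under Python 3.11.15 with pandas 2.3.3, matplotlib 3.10.9 and Biopython 1.88, and the fit was tested on simulated data.

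Named genes were Timp1 to Timp4 where tested, members called with a log2 fold change of at least 1 (up to 10 per comparison), the 12 with the highest mean CPM, and Mmp2, Mmp9, Mmp14, Adam10 and Adam17. Pathway genes were named only where called, up to 6 per comparison, and 1 that met this rule is not reported here. The members, lists and tests were chosen with earlier results of these data known. No 2 libraries agreed within sampling noise (lowest chi-square per degree of freedom 4.88).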

Additional observations from a re-analysis of the deposited data

Results flagged for a closer look

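Single libraries stood far from the other 3 of their group in 14 of the 150 groups looked at (25 named members in 6 groups of 4), where chance alone gives about 1 in 20. Lung shRenilla B held 5 of them. It had 378 CPM of Adam10 (others 186 to 216), 341 CPM of Adam9 (164 to 188), 46.5 CPM of Adamts1 (24.6 to 27.4), 5.36 CPM of Adamts9 (2.69 to 3.11) and, as the only low value, 70.3 CPM of Timp1 (111 to 119). Lung shAsns-2 D held another 5, all high. It had 2.24 CPM of Adam1a (others 0.823 to 0.991), 12.5 CPM of Adam8 (6.68 to 7.06), 8.53 CPM of Adamts6 (2.15 to 2.86), 38 CPM of Mmp9 (13.6 to 17.2) and 2.52 CPM of Timp3 (1.14 to 1.27). Both are the lung libraries that stood apart over all genes. In tumors, shAsns-2 D had 47.4 CPM of Mmp9 (others 29.6 to 31.4), shAsns-2 A had 0.598 CPM of Mmp1a (1.46 to 1.57) and shAsns-2 B had 0.0823 CPM of Adam5 (others 0). The Mmp1a value was 5 reads in the library with the lowest total (8480908 counts), and the Adam5 value was 3 reads. Tumor shAsns-1 B had 0.462 CPM of Timp3 (0.197 to 0.229).

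The difference between sites of shAsns-1 against shRenilla, lung minus tumor on the log2 scale, passed the edgeR test of that difference in 12 members. It was -2.72 for Mmp3, -2.80 for Adamts9, -2.63 for Mmp1a, -1.77 for Mmp1b and -1.83 for Adam33. It was 2.59 for Adam12, 2.43 for Adamts1, 2.23 for Mmp12, 1.78 for Mmp2, 1.55 for Mmp9, 1.42 for Adam1a and 1.06 for Mmp14. The call of Adam33, Mmp12, Mmp2, Adam1a or Mmp14 ended when single libraries were left out, as given above.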

How the results depend on the processing

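Of 58 calls of named members in pairwise comparisons, 43 were called under every alternative and none changed sign. Some of these members were named for the size of their change in these data. The 58 leave out the calls of Adam4, Adam21, Adamts8, Adamts10 and Adamts14, several of which were lost as given above. With no filter 10 were lost, with only the compared groups 3, by limma 3 and without both lung libraries that stood apart 2. DESeq2 and the other scaling lost none. The shares in brackets below are of all genes tested in the same fit. For tumor shAsns-2 against tumor shRenilla the count of members was 1 by DESeq2 (0.349%), with no filter (0.0515%) and without both lung libraries that stood apart (0.396%). It was 0 to 1 when single libraries were left out. For lung shAsns-2 against lung shRenilla limma gave 11 (12.5%). For lung shAsns-1 against lung shAsns-2 DESeq2 gave 1 (0.507%), limma 10 (15.2%) and the fit without both lung libraries that stood apart 2 (1.39%). Leaving out single libraries gave 0 to 2 there (at most 0.626%). For lung against tumor shAsns-1 the count was 11 with only the compared groups (29.4%), 15 by limma (32.8%) and 8 without both lung libraries that stood apart (23.8%). For lung against tumor shAsns-2 it was 9 with no filter (10.5%) and 22 without both (39%). For the difference between sites of shAsns-1 it was 7 to 12 when single libraries were left out, with 7 without lung shAsns-1 D (10.6%). The causes were not tested. The replicate letters showed no pairing of libraries in the median correlation of deviations. Over 60 same-letter pairs it ran between -0.41 and 0.46 (median 0.01), and over 180 other-letter pairs between -0.39 and 0.58 (median 0.001). Of 24 libraries, 9 correlated best with their own letter, and the number to be had by chance was not computed. With the replicate block the count was 20 for tumor shAsns-1 against tumor shRenilla (34.1%), 14 for lung against tumor shRenilla (21.7%) and 12 for the difference between sites of shAsns-1 (14.5%). Genes of few reads (Adam5, Adam33, Mmp2) are limited by depth.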
